A study of Mus musculus with 29 samples.

Results

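PDE6 is the phosphodiesterase of photoreceptor outer segments, and its subunits are encoded by 6 mouse genes, *Pde6a*, *Pde6b*, *Pde6c*, *Pde6d*, *Pde6g* and *Pde6h*. All 6 were found by name among the 24062 genes of the RNA-seq table, and 46 of the 110715 accessible regions of the ATAC-seq table lay on these genes. A region was assigned to a gene when its centre fell between 10000 bp upstream of the outermost RefSeq start site and the end of the gene. In the light response, transducin activates PDE6, which hydrolyses cGMP and so lets the cGMP-gated channels of the outer segment close. The rod enzyme pairs the catalytic subunits α and β, from *Pde6a* and *Pde6b*, and holds the inhibitory γ subunit of *Pde6g*, whereas the cone enzyme uses the catalytic subunit of *Pde6c* with the inhibitory subunit of *Pde6h*. *Pde6d* encodes a prenyl-binding protein that carries lipid-modified proteins, PDE6 among them, and is found in many tissues.

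RNA was sequenced from 15 libraries of sorted mouse retinal cells, 3 each from rods, blue cones, bipolar cells of every type (pan-BC) and the ON and OFF classes of bipolar cell (ON-BC and OFF-BC), and open chromatin was profiled by ATAC-seq in 2 libraries each of the same populations and of green cones. Pan-BC for RNA-seq came from Otx2-GFP+/- mice at postnatal day 44 to 47. All other bipolar libraries, including the ATAC-seq pan-BC, are labelled Otx2-GFP+/-; Grm6-YFP+/+ and came from mice aged 42 to 48 days, with the same age for ON-BC and OFF-BC libraries of the same number, so that every bipolar sample carried a GFP allele at the *Otx2* locus. In this line a *Grm6* promoter drives YFP in ON-BC, which separated ON-BC from OFF-BC, and only OFF-BC were sorted a second time. Rods (Nrl-eGFP), the blue cone surrogate (Nrl-eGFP;NrlKO) and green cones (Opn1mw-GFP) were 56 days old and came from an earlier study, so that cell class, study, age and reporter cannot be told apart between bipolar cells and photoreceptors. The blue cone libraries are photoreceptors of mice lacking *Nrl*, the rod-determining transcription factor, and are not sorted wild-type cones.

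Counted reads ranged from 12329548 to 26266746 per RNA-seq library and from 4176776 to 12345845 per ATAC-seq library. The deposited values are normalized counts, that is, reads divided by a size factor for each library. *Nrl* was at 11476, 16599 and 14469 in rods and at 657, 764 and 486 in the blue cone surrogate. The populations carried their defining markers: the sum of 10 bipolar markers was at least 119701 in every bipolar library and at most 30854 in any photoreceptor library. One library stood apart. The sum of 6 cone markers was 29178 and 34360 in the other two OFF-BC libraries and 99519 in OFF-BC replicate 3, in which *Opn1sw*, the blue cone opsin, reached 55813 against 4477 and 4314. OFF-BC means and calls that this library moved by over 1.5-fold or across the threshold are therefore also given without it. In sorted bulk populations, fewer cells of a type and less RNA per cell cannot be told apart.

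Promoter sequence was available for 3 of the 6 genes (*Pde6b*, *Pde6d* and *Pde6h*) and is shown for the catalytic rod gene and the inhibitory cone gene, whose start sites differed in accessibility between rods and blue cones. The first 2 sequences are the 250 bases upstream of the start site, at chr5:108388123-108388372 and chr6:136954273-136954522, both on the plus strand. They were taken from RefSeq, build GRCm38. The other two are accessible regions within introns, at chr5:108389808-108390008 on the plus strand (from 1435 to 1635 bp downstream of the *Pde6b* start) and chr11:120452331-120452531 on the minus strand (from 969 to 1169 bp downstream of the *Pde6g* start), and are shown as the intronic regions of *Pde6b* and *Pde6g* nearest to the start sites of these genes. Capitals mark matches on either strand to TAATCC (the site of K50 homeodomain factors such as CRX and OTX2), TAATTA or TAATTG (sites of Q50 homeodomain factors) and TGCTGAC (an NRL-like site). The 4 motifs do not overlap one another in these windows.
*Pde6b* promoter: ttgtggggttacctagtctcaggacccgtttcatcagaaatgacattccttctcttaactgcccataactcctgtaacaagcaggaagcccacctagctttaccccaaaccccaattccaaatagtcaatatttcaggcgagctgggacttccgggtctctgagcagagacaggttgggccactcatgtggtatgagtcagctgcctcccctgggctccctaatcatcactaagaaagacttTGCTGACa
*Pde6h* promoter: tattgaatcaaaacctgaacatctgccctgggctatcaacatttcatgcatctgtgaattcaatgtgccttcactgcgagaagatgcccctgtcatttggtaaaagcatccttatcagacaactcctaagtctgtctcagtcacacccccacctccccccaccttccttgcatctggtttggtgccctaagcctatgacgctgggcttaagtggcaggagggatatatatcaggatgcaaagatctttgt
*Pde6b* intron region: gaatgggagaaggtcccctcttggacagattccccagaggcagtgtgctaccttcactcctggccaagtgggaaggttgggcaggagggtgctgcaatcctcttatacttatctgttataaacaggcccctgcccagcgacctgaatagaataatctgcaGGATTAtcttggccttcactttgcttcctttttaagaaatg
*Pde6g* intron region: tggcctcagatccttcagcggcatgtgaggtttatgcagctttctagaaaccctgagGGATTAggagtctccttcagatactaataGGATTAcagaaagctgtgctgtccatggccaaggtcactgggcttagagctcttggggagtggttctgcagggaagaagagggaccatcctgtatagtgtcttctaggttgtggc

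The *Pde6b* promoter held 1 TGCTGAC match, 8 to 2 bases before the start site, and no homeodomain motif. The string TGCTGAC occurred in 3.72% of the 27025 promoter windows of this length in the RefSeq table. None of these 4 motifs was found in the *Pde6h* window, which held 4 E-boxes (CANNTG), as compared with 2 in the *Pde6b* window. E-boxes were common, being present in 66.0% of promoter windows. The *Pde6b* intron region held 1 TAATCC match and the *Pde6g* intron region held 2. A match is a string of letters and was not tested as a binding site.

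A difference between populations was tested in limma on log2(normalized count + 1) against a fold change of 2, as in the design of the study, and a gene was called at an adjusted p below 0.05 over the 14024 genes kept after a filter on low counts. All 6 PDE6 genes passed that filter. Values are given for replicates 1, 2 and 3 in that order, and differences are on the log2(normalized count + 1) scale with their standard error (SE).

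The catalytic rod genes were highest in rods and lowest in OFF-BC. *Pde6b* (β subunit, chr5:108388373-108431743) was at 266949, 291270 and 267185 normalized counts in rods and at 3401, 3339 and 3087 in blue cones. In bipolar cells it was at 1034, 867 and 1378 in pan-BC, 874, 996 and 815 in ON-BC, and 102, 133 and 193 in OFF-BC. Rods stood above every other library, blue cones above every bipolar library and OFF-BC below every other library, whereas pan-BC and ON-BC overlapped. The mean in rods was 84.0-fold that in blue cones (log2 difference 6.39 ± 0.19, limma adjusted p = 2.86e-13) and 252-fold that in pan-BC (pan-BC minus rods -8.00 ± 0.19, adjusted p = 8.78e-15). The smaller gap between pan-BC and blue cones was also called (-1.61 ± 0.19, adjusted p = 0.00805), although not when libraries were scaled by their total reads (-1.33, adjusted p = 0.156) or without pan-BC replicate 2 (-1.45, adjusted p = 0.0543).

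*Pde6a* (α subunit, chr18:61220474-61289750) was at 30866, 40103 and 35252 in rods and 4443, 4298 and 3713 in blue cones. It was at 155, 138 and 185 in pan-BC, 147, 144 and 150 in ON-BC, and 7.82, 37.2 and 15.4 in OFF-BC. Its populations fell in the same order as those of *Pde6b*, with pan-BC and ON-BC again the only neighbours to overlap. *Pde6a* and *Pde6b* differed in the Nrl-deficient blue cones, relative to which rods were 8.53-fold higher for *Pde6a* (3.09 ± 0.33, limma adjusted p = 6.15e-05). Pan-BC lay below rods (-7.79 ± 0.33, adjusted p = 7.4e-12) and below blue cones (-4.70 ± 0.33, adjusted p = 3.69e-08).

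*Pde6c* (cone catalytic subunit, chr19:38132781-38183955) was at 67873, 68112 and 62615 in blue cones and at 459, 498 and 531 in rods. It was at 189, 112 and 213 in pan-BC, 16.5, 35.3 and 18.5 in ON-BC, and 71.5, 121 and 810 in OFF-BC. Blue cones stood above all other libraries and ON-BC below all, while OFF-BC overlapped pan-BC and, through replicate 3 alone, rods. Rods differed from blue cones by -7.06 ± 0.58 (limma adjusted p = 1.64e-07) and pan-BC from blue cones by -8.64 ± 0.58 (adjusted p = 4.94e-09). The gap between pan-BC and rods was not called (-1.58 ± 0.58, adjusted p = 0.326), although it was with only these populations in the fit (adjusted p = 0.0325).

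**Figure D1:**
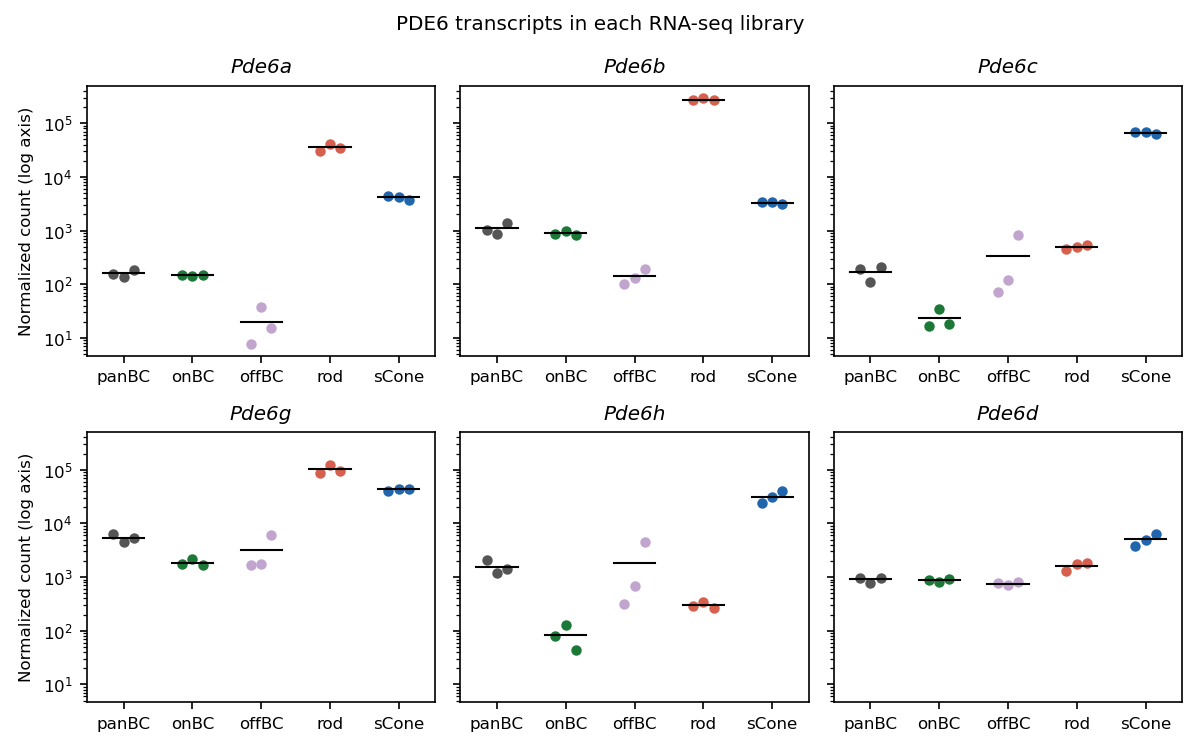
Normalized counts of the 6 PDE6 genes in each of the 15 RNA-seq libraries, on a log axis, with 1 point per library and a bar at the mean of each population (sCone stands for blue cones). *Pde6a*, *Pde6b* and *Pde6g* peak in rods and *Pde6c*, *Pde6d* and *Pde6h* in blue cones, and OFF-BC replicate 3 lies above the other two OFF-BC libraries for *Pde6c* (810 against 71.5 and 121), *Pde6g* (6158 against 1690 and 1756) and *Pde6h* (4447 against 313 and 692).

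Of the inhibitory genes, *Pde6g* was abundant in both rods and blue cones, whereas *Pde6h* was abundant in blue cones but not in rods. *Pde6g* (chr11:120447607-120453500) was at 87356, 124312 and 95928 in rods and at 40423, 44522 and 44608 in blue cones. It was at 6279, 4448 and 5397 in pan-BC, 1723, 2187 and 1656 in ON-BC, and 1690, 1756 and 6158 in OFF-BC. The libraries of rods and blue cones did not overlap, but the 2.37-fold ratio of their means was not called against a threshold of 2-fold (1.23 ± 0.34, limma adjusted p = 0.924; adjusted p = 0.00522 against no difference, where 57.5% of all genes passed). The 3 bipolar populations overlapped as neighbours, and pan-BC lay below rods (-4.25 ± 0.34, adjusted p = 1.5e-07) and below blue cones (-3.02 ± 0.34, adjusted p = 5.38e-05).

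*Pde6h* (chr6:136952218-136963485) was at 23631, 30454 and 40607 in blue cones, but at only 290, 342 and 267 in rods. In bipolar cells it was at 2058, 1189 and 1418 in pan-BC, 79.5, 128 and 43.1 in ON-BC, and 313, 692 and 4447 in OFF-BC. All 3 pan-BC libraries thus stood above rods, ON-BC stood below rods, and OFF-BC spanned pan-BC and reached down into the range of rods. Blue cones were 105-fold above rods (rods minus blue cones -6.69 ± 0.63, limma adjusted p = 1.12e-06) and 20.3-fold above pan-BC (-4.35 ± 0.63, adjusted p = 0.000168). The excess of pan-BC over rods (2.34 ± 0.63) was not called (adjusted p = 0.0566), but the call varied with the libraries that entered the shared estimate of the spread. It was called when OFF-BC replicate 3 (adjusted p = 0.00195) or OFF-BC replicate 1 (adjusted p = 0.0217) was left out of the fit, and in edgeR's quasi-likelihood test on the recovered reads (adjusted p = 0.0156).

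*Pde6d* (prenyl-binding δ subunit, chr1:86543012-86582785) was the member closest to even expression. It was at 3746, 4926 and 6370 in blue cones, 1277, 1784 and 1837 in rods, 966, 771 and 978 in pan-BC, 887, 806 and 940 in ON-BC, and 773, 700 and 796 in OFF-BC. Blue cones and then rods stood above the bipolar libraries, and pan-BC overlapped ON-BC. Blue cones were 3.07-fold above rods (rods minus blue cones -1.60 ± 0.17, limma adjusted p = 0.0107), a call that was lost without blue cone replicate 3 (-1.41, adjusted p = 0.0760) and without rod replicate 1 (-1.44, adjusted p = 0.0770). Pan-BC lay below blue cones (-2.44 ± 0.17, adjusted p = 1.17e-06), whereas the difference from rods was within 2-fold (-0.84 ± 0.17, adjusted p = 1). The 5' end of *Pde6d* overlaps *Cops7b* by 140 bp on the opposite strand, and reads in the overlap cannot be told apart if strand was not used in counting, which is not given in the sources used here.

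Levels of different genes were compared per kb of exon, and uneven read coverage along transcripts was not corrected for. In rods the order of means was *Pde6g* (111569 normalized counts per kb), *Pde6b* (97669), *Pde6a* (8321), *Pde6d* (1109), *Pde6h* (537) and *Pde6c* (167). In blue cones it was *Pde6h* (56567), *Pde6g* (46991), *Pde6c* (22312), *Pde6d* (3406), *Pde6b* (1163) and *Pde6a* (976). The α and β subunits form 1 enzyme with equal parts, but protein was not measured here. In the rod libraries *Pde6b* mRNA per kb was 11.0 to 13.1 times *Pde6a* mRNA. That ratio was 9.47 to 11.3 in pan-BC, 8.21 to 10.5 in ON-BC and 5.41 to 19.6 in OFF-BC, but 1.16 to 1.26 in blue cones. The summed inhibitory mRNA per kb was 0.935 to 1.20 times the summed catalytic mRNA in rods and 3.44 to 5.26 times in blue cones. In bipolar cells the catalytic level was low (a mean per kb of 483 for pan-BC, 360.1 for ON-BC and 168 for OFF-BC, or 79.5 without OFF-BC replicate 3, against 106158 for rods). Inhibitory mRNA exceeded it by 13.9- to 22.5-fold in pan-BC, by 5.68- to 6.53-fold in ON-BC and by 32.5- to 42.5-fold in OFF-BC.

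The cone share of the mRNA was also examined in each library. *Pde6c* made up 91.0% to 91.5% of catalytic mRNA per kb in blue cones and 0.149% to 0.173% in rods. *Pde6h* made up 49.1% to 60.0% of inhibitory mRNA per kb in blue cones, the remainder being *Pde6g*, and 0.451% to 0.544% in rods. Blue cones thus carried the rod inhibitory transcript (46991 per kb) beside their own (56567), but less of the rod catalytic transcripts. In ON-BC both cone shares were low (*Pde6c* 1.59% to 2.98%, *Pde6h* 4.11% to 8.81%), and in OFF-BC they were higher and scattered (*Pde6c* 38.9%, 42.2% and 79.1%; *Pde6h* 23.4%, 39.4% and 54.3%), with replicate 3 highest for both. *Pde6h* mRNA per kb was 1.85 to 3.45 times *Pde6c* mRNA in blue cones and 2.67 to 3.65 times in rods, as compared with 35.4 to 57.8 times in pan-BC, 12.4 to 25.6 times in ON-BC and 23.3 to 30.3 times in OFF-BC. No bipolar library came within the blue cone range of that ratio.

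Pan-BC were compared with each photoreceptor type to ask which PDE6 genes separated the cell classes. Relative to rods, 3 of 6 PDE6 genes were called and all 3 were lower in pan-BC (*Pde6a*, *Pde6b*, *Pde6g*), where 43.6% of all genes tested were called, 15.8% as lower and 27.8% as higher. The median difference of the 6 genes was -2.91, against 0.21 over all genes. Relative to blue cones, 6 of 6 were lower in pan-BC (36.3% of all genes called, 22.7% as higher and 13.7% as lower), with a median of -3.68 against 0.16. These comparisons share the pan-BC libraries. Tested against no difference rather than 2-fold, all 6 genes passed between pan-BC and rods, where 79.5% of all genes did so, with *Pde6h* the only one higher in pan-BC (adjusted p = 0.00282).

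Between rods and blue cones 5 of 6 genes were called (15.9% of all genes). *Pde6a* and *Pde6b* were higher in rods (4.63% of all genes), and *Pde6c*, *Pde6d* and *Pde6h* were higher in blue cones (11.3%). Absolute differences ranged from 1.60 for *Pde6d* to 7.06 for *Pde6c* among the called genes. The median of the 6 was -0.19, as the set held genes of both directions, and that of all genes was -0.00469. Between ON-BC and OFF-BC 4 of 6 genes were called, as compared with 6.55% of all genes. The rod catalytic genes *Pde6a* (3.06 ± 0.33, limma adjusted p = 0.000194) and *Pde6b* (2.68 ± 0.19, adjusted p = 4.53e-06) were higher in ON-BC, as were 2.95% of all genes. The cone genes *Pde6c* (-3.06 ± 0.58, adjusted p = 0.0212) and *Pde6h* (-3.68 ± 0.63, adjusted p = 0.00636) were higher in OFF-BC, as were 3.60% of all genes. *Pde6g* (-0.52 ± 0.34) and *Pde6d* (0.21 ± 0.17) were not called (adjusted p = 1 for both). The ON-BC and OFF-BC libraries did not overlap for the 4 called genes or for *Pde6d*. The share of all genes without overlap was not counted, and *Pde6d* was not called.

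**Figure D2:**
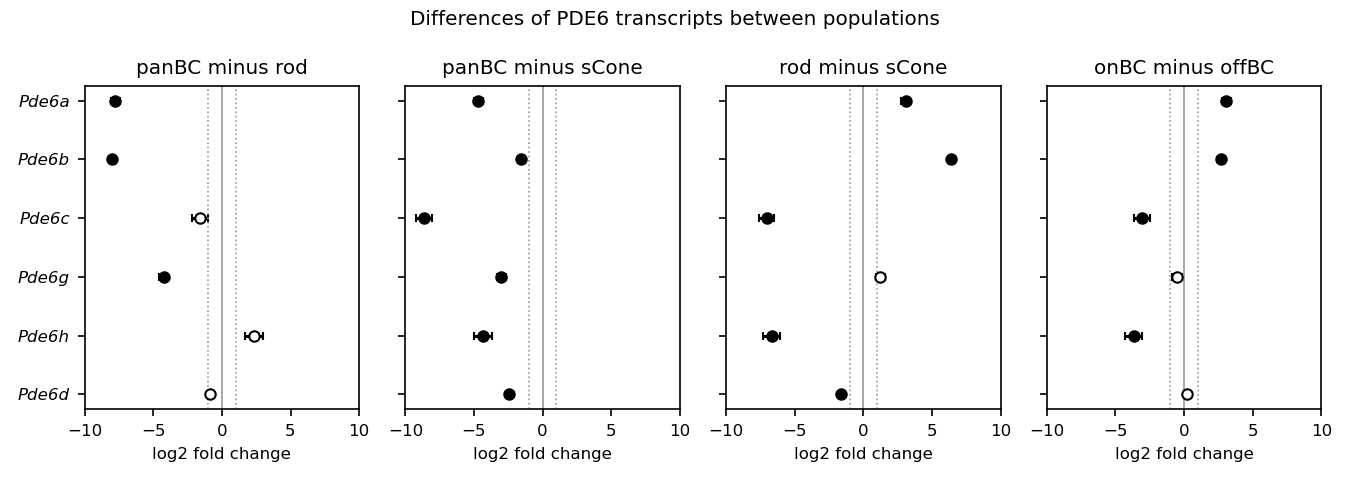
Fitted log2 differences of the 6 PDE6 genes in 4 comparisons (pan-BC minus rods, pan-BC minus blue cones, rods minus blue cones, ON-BC minus OFF-BC), with standard errors as bars, filled points for called genes, open points for the rest and dotted lines at a log2 difference of 1 in either direction. Differences span -8.64 (*Pde6c*, pan-BC minus blue cones) to 6.39 (*Pde6b*, rods minus blue cones), and *Pde6d* stays within 2.44 of 0 in all 4 comparisons.

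The ON-BC and OFF-BC differences were recomputed without OFF-BC replicate 3. *Pde6a* (3.01, limma adjusted p = 0.00112) and *Pde6b* (2.93, adjusted p = 5.81e-07) were called again. The cone genes moved closer to 0 but were still called, *Pde6c* at -2.03 (adjusted p = 0.0320) and *Pde6h* at -2.60 (adjusted p = 0.00862). *Pde6g* changed sign from -0.52 to 0.10 and was not called in either fit. With the replicate number as a block, since same-numbered ON-BC and OFF-BC libraries share an age, all 4 calls were kept (adjusted p = 0.00344 for *Pde6a*, 0.00012 for *Pde6b*, 0.0340 for *Pde6c* and 0.0214 for *Pde6h*). The *Pde6c* call was lost without ON-BC replicate 1 (-2.86, adjusted p = 0.0955), without ON-BC replicate 3 (-2.94, adjusted p = 0.0826) and when only the ON-BC and OFF-BC libraries were fitted (adjusted p = 0.0698).

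Because PDE6 is a photoreceptor enzyme, the level of each gene in bipolar cells was set beside photoreceptor markers as a percent of the photoreceptor mean. *Pde6a* and *Pde6b* in pan-BC were at 0.450% and 0.397% of the rod mean, in ON-BC at 0.415% and 0.325%, and in OFF-BC at 0.0570% and 0.0519%. Over 8 rod markers the median percent per library was 0.902 to 1.05 in pan-BC, 0.714 to 1.02 in ON-BC and 0.0833 to 0.127 in OFF-BC. *Gnat1*, the rod transducin α subunit, was at 1.02%, 0.865% and 0.0751%, respectively. *Pde6a*, *Pde6b* and 6 of the 8 rod markers had their means in the order pan-BC, ON-BC, OFF-BC from high to low. The exceptions were *Cnga1*, the rod channel, at 0.767% in pan-BC and 0.785% in ON-BC, and *Sag*, the rod arrestin, at 0.987% in ON-BC and 2.06% in OFF-BC, or 0.789% in OFF-BC without replicate 3. None of the 8 rod markers was at 0 in all libraries of any population. Their sum ranged from 46127 to 53069 in pan-BC, from 30977 to 36507 in ON-BC and from 9850.5 to 26540 in OFF-BC. In rods it ranged from 1684240 to 2371180. Of the 8, 5 were called higher in ON-BC than in OFF-BC (2.95% of all genes), or 6 without OFF-BC replicate 3 (3.02%). The part of rod RNA in the *Pde6a* and *Pde6b* differences between bipolar populations was not tested.

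The same comparison was made for the cone genes against blue cones. *Pde6c* was at 0.259% of the blue cone mean in pan-BC, at 0.0354% in ON-BC and at 0.505% in OFF-BC (0.108% to 1.22%), and *Pde6h* at 4.93%, 0.265% and 5.76% (0.991% to 14.1%). Without OFF-BC replicate 3 the OFF-BC values were 0.146% for *Pde6c* and 1.59% for *Pde6h*, both below pan-BC. Over 6 cone markers the median percent per library was 2.55 to 3.87 in pan-BC and 0.130 to 0.257 in ON-BC, and it was 0.698, 1.38 and 6.87 in OFF-BC. *Opn1sw* was at 3.31%, 0.0557% and 1.76% (0.360% in OFF-BC without replicate 3), and *Arr3*, the cone arrestin, at 3.46%, 0.208% and 3.87% (1.22% without it). *Cnga3* was at 1.33% in pan-BC and 0.498% in OFF-BC (0.0859% without it). The remaining cone markers were higher in OFF-BC than in pan-BC, with or without replicate 3. *Gngt2* was at 52.8% against 19.1% (47.7% without it), *Gnat2* at 10.5% against 5.60% (9.30%) and *Opn1mw* at 1.03% against 0.558% (0.857%). Cone markers summed to between 43453 and 68751 in pan-BC, between 5024 and 5749 in ON-BC and between 29178 and 99519 in OFF-BC. In blue cones the sum was between 1410140 and 1627630, and none was at 0 in all libraries of a population. Of the 6, 5 were called lower in ON-BC than in OFF-BC (3.60% of all genes), or 4 without OFF-BC replicate 3 (3.16%). The part of cone RNA in the *Pde6c* and *Pde6h* differences was not tested. In contrast, *Pde6g* was at 5.24% of the rod mean in pan-BC, at 1.81% in ON-BC and at 3.12% in OFF-BC (1.65%, 1.71% and 6.01%; mean 1.68% without replicate 3, which is below ON-BC), and *Pde6d* at 55.4%, 53.8% and 46.3% of rods and 18.0%, 17.5% and 15.1% of blue cones.

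The study set aside a gene that differed between ON-BC and OFF-BC when rods or blue cones expressed it at over 16-fold the level of the higher bipolar population. By that rule all 4 PDE6 genes called between ON-BC and OFF-BC would be set aside. *Pde6a* and *Pde6b* in rods were 241- and 307-fold above ON-BC, and *Pde6c* and *Pde6h* in blue cones were 198- and 17.4-fold above OFF-BC. Without OFF-BC replicate 3 the last 2 values were 686- and 62.8-fold. The study states the rule for either photoreceptor population, but its worked example names rods and blue cones together. In the other photoreceptor type the ratio to the higher bipolar population was 28.3 for *Pde6a*, 3.66 for *Pde6b*, 1.48 for *Pde6c* and 0.165 for *Pde6h*. If both types had to pass, only *Pde6a* would be set aside.

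**Figure D3:**
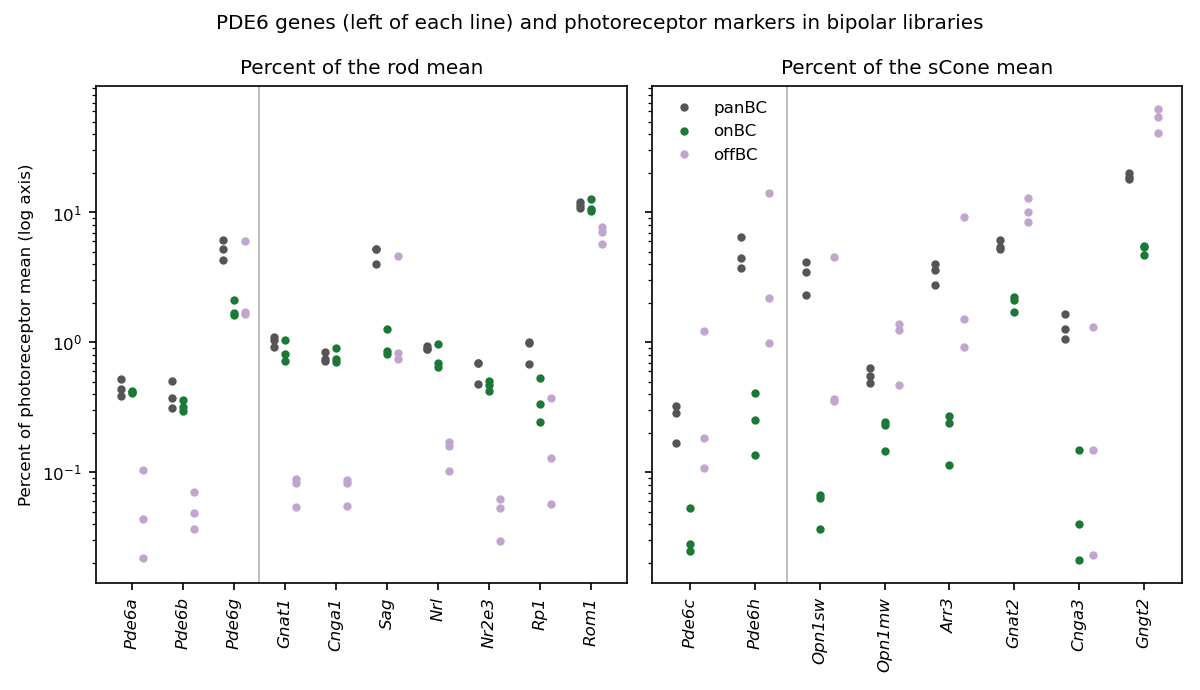
Level of 5 PDE6 genes in bipolar libraries as a percent of the photoreceptor mean (rods for rod genes and markers, blue cones for cone genes and markers), on a log axis with 1 point per library, beside 7 rod markers and 6 cone markers. *Pde6a* and *Pde6b* average 0.450% and 0.397% in pan-BC and 0.0570% and 0.0519% in OFF-BC, and *Pde6h* ranges from 0.991% to 14.1% among the OFF-BC libraries.

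The genes with the pattern most like each member were taken as the 3 with the highest Pearson's r over the 15 libraries, which fall in 5 populations of 3, so that r mainly reflects 5 means. For *Pde6a* they were *Pacsin2* (r = 0.994), *Nedd4l* (0.993) and *Slco4a1* (0.993), and for *Pde6b* they were *Glb1l2* (0.997), *Reep6* (0.992) and *Nrl* (0.991). *Pde6g* was closest to *Rcvrn* (0.998), which encodes the calcium sensor recoverin of rods and cones, *Traf3ip3* (0.994) and *Rp1l1* (0.993). *Pde6c* was closest to *Rgl3* (0.988), *Nr6a1* (0.986) and *Opn1mw*, the green cone opsin (0.981), and *Pde6h* to *Fabp7* (0.989), *Arr3* (0.989) and *Opn1sw* (0.982). *Pde6d* was closest to *Ficd* (0.991), *Dnajb11* (0.991) and *Svip* (0.989), 3 genes of the endoplasmic reticulum. Among the members themselves r was 0.941 for *Pde6a* and *Pde6b*, 0.907 for *Pde6c* and *Pde6h*, and -0.0799 for *Pde6b* and *Pde6h*.

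The rest of the phototransduction cascade was counted over 26 genes (opsins, transducins, channels, guanylate cyclases and their activators, recovery proteins and exchangers), of which 10 are also among the rod and cone markers. The comparison of pan-BC with rods called 16 of them lower (15.8% of all genes) and 5 higher (27.8%) in pan-BC (median -3.68). The lower genes were led by *Gnb1* (-7.95, limma adjusted p = 2.52e-10), the rod transducin β subunit, *Guca1b* (-7.26, adjusted p = 3.8e-07), a guanylate cyclase activator, and *Cnga1* (-7.01, adjusted p = 1.08e-13), the rod channel. The higher genes were led by *Gngt2* (4.99, adjusted p = 3.05e-12) and *Gnb3* (4.21, adjusted p = 9.58e-10), the γ and β subunits of cone transducin, and *Slc24a2* (4.05, adjusted p = 5.22e-11), the cone exchanger. Per the study, *Gnb3* is also needed for the function of ON-BC, and it was called higher in ON-BC than in OFF-BC (2.81, limma adjusted p = 1.77e-05).

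Relative to blue cones, 17 cascade genes were lower in pan-BC (13.7% of all genes) and 4 higher (22.7%), with a median of -2.71. *Opn1mw* (-7.47, limma adjusted p = 1.4e-11) and *Cnga3* (-6.24, adjusted p = 3.21e-05), the cone channel, led the lower genes, and *Gnat1* (2.30, adjusted p = 2.27e-05) and *Cnga1* (2.18, adjusted p = 7.03e-05) were among the higher ones. Between ON-BC and OFF-BC, 5 cascade genes were called toward ON-BC (2.95% of all genes) and 7 toward OFF-BC (3.60%), or 6 and 6 without OFF-BC replicate 3. *Gnat1* (3.54, adjusted p = 1.3e-07) and *Cnga1* (3.36, adjusted p = 2.87e-07) were among those toward ON-BC, and *Opn1sw* (-3.96, adjusted p = 0.00332), *Arr3* (-3.58, adjusted p = 0.00306) and *Gngt2* (-3.32, adjusted p = 1e-07) the furthest toward OFF-BC. Without OFF-BC replicate 3 *Opn1sw* was at -2.74 (adjusted p = 0.000104) and *Arr3* at -2.60 (adjusted p = 0.00142), and the *Opn1mw* call (-2.20, adjusted p = 0.00895) was lost (-1.92, adjusted p = 0.0600). Between rods and blue cones 9 were higher in rods (4.63% of all genes) and 9 lower (11.3%), with a median of 0.98.

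PDE6 also needs proteins that fold it, prenylate it and carry it. A list of 16 genes for folding, prenylation and the transport of lipid-modified proteins was counted, not all of them known to act on PDE6. In pan-BC 6 were lower and 2 higher than in rods (median -0.84), and 5 were lower and 1 higher than in blue cones (median -0.88). The 8 of 16 called against rods and 6 of 16 against blue cones were near the shares of all genes called (43.6% and 36.3%). *Aipl1*, the PDE6-specific co-chaperone, was lower in pan-BC relative to rods (-5.16, limma adjusted p = 1.12e-08) and blue cones (-6.26, adjusted p = 1.31e-09). Its means were 24243 in rods, 52181 in blue cones, 687 in pan-BC, 817 in OFF-BC and 183 in ON-BC. OFF-BC replicate 3 was at 1623 against 403 and 424, and the OFF-BC mean without it was 414. *Unc119*, a lipid-binding carrier, lay lower in pan-BC relative to rods (-2.29, adjusted p = 3.21e-06) and blue cones (-2.15, adjusted p = 1.73e-05). *Arl3*, the small GTPase that unloads cargo from the δ subunit, had means of 4105 in rods, 5584 in blue cones and 3038 in pan-BC, and was not called (-0.43 and -0.87, adjusted p = 1 for both), while *Arl2* was higher in pan-BC relative to rods (2.69, adjusted p = 5.11e-10) and blue cones (1.50, adjusted p = 0.000858).

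Of the same 16 genes, *Arl13b* was higher in rods than in blue cones (2.58, limma adjusted p = 6.27e-07) and *Hsp90ab1* lower (-1.58, adjusted p = 0.00374). Between ON-BC and OFF-BC 0 of 16 were called in limma and 0 in DESeq2, although 1 had an unadjusted p under 0.05 in each and 1 was called in edgeR. *Aipl1*, with the largest absolute difference of the 16, was at -1.83 (limma adjusted p = 0.192), or -1.17 without OFF-BC replicate 3 (adjusted p = 1).

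Most genes of the other phosphodiesterase families were higher in pan-BC. Of 18 genes, 16 passed the filter, and 12 of these were higher and 1 lower in pan-BC than in rods (median 5.59), where 27.8% of all genes were higher and 15.8% lower. Relative to blue cones 9 were higher and 1 lower (median 2.87), where 22.7% of all genes were higher and 13.7% lower. Relative to rods, *Pde9a* (8.39, limma adjusted p = 5.68e-11), a cGMP-specific enzyme, *Pde1a* (8.15, adjusted p = 4.94e-09), which is activated by calmodulin, and *Pde4a* (7.41, adjusted p = 8.97e-13), which is cAMP-specific, were furthest toward pan-BC. The gene in the other direction was the cAMP-specific *Pde8b* (-3.75, adjusted p = 1.01e-10), at 450, 444 and 509 in pan-BC, 4864, 7328 and 6991 in rods, and 8736, 6661 and 5399 in blue cones. Per kb, *Pde8b* averaged 1240 in rods, more than *Pde6d*, *Pde6h* or *Pde6c*. *Pde1a* was the phosphodiesterase with the greatest difference between bipolar populations (-7.24, adjusted p = 5.97e-07), at 21.7, 24.5 and 8.21 in ON-BC and 2326, 3505 and 2237 in OFF-BC, and it was at 16.3 or less in every rod and blue cone library.

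**Figure D4:**
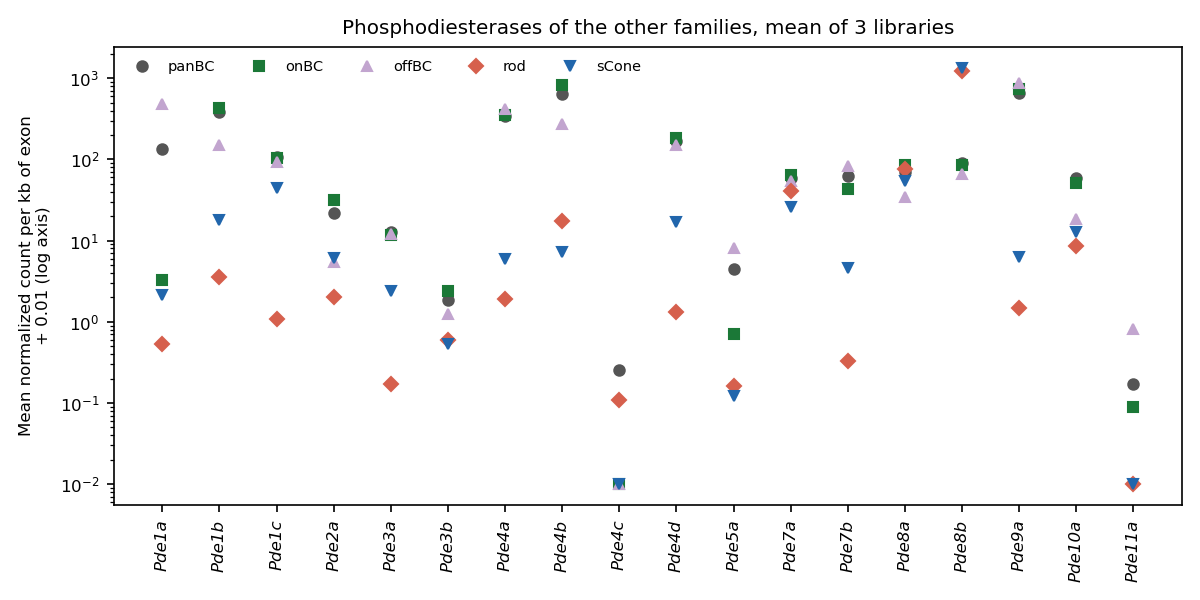
Mean normalized count per kb of exon (plus 0.01, log axis) of 18 phosphodiesterase genes outside the PDE6 family, as means of 3 libraries, in the 5 populations (panBC, onBC and offBC for the bipolar populations, sCone for blue cones). In rods and blue cones *Pde8b* is the highest, at 1240 and 1345 per kb, and *Pde9a* and *Pde4b* average 649.6 and 638 per kb in pan-BC.

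Transcription factors with these motifs, or known for rods, were also examined. *Crx*, a K50 homeodomain factor of photoreceptors, had means of 64906 in rods, 41408 in blue cones and 9552 in pan-BC (pan-BC minus rods -2.76, limma adjusted p = 5.22e-09). *Otx2*, which has the same binding specificity, was within 2-fold between pan-BC and rods (9955 and 7202). *Nrl* averaged 14181 in rods, 128 in pan-BC, 20.5 in OFF-BC and 110 in ON-BC, and *Nr2e3*, a nuclear receptor of rods, averaged 33717 in rods and 68.2 in blue cones.

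Chromatin was next examined over the 46 PDE6 regions, each 201 bases long, of which 15 lay on *Pde6a*, 10 on *Pde6b*, 6 on *Pde6c*, 7 on *Pde6d*, 3 on *Pde6g* and 5 on *Pde6h*. All 46 passed the filter that kept 108448 regions, and values are normalized counts in replicates 1 and 2. Positions are those of the centre of a region relative to the start site of the curated RefSeq transcript, negative when upstream. The region with its centre at the *Pde6b* start was at 491 and 451 in rods but at 1.30 and 5.78 in blue cones, 111 and 80.3 in green cones, 12.8 and 14.3 in pan-BC, 23.9 and 5.86 in ON-BC, and 8.08 and 7.79 in OFF-BC. Rods were above blue cones by 6.90 (limma adjusted p = 5.13e-07). Both blue cone libraries lay below every bipolar library, though barely (5.78 against 5.86 in ON-BC replicate 2). The difference of pan-BC minus blue cones was not called (1.88, adjusted p = 0.152). Pan-BC lay below rods (-5.02, adjusted p = 5.89e-06). This region overlaps the *Pde6b* promoter printed above. While the region was this low in blue cones, *Pde6b* RNA there averaged 2.998-fold that in pan-BC.

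The other rod promoters were open in blue cones too. The *Pde6a* region at -82 was at 512 and 541 in rods as compared with 203 and 190 in blue cones, 21.6 and 14.3 in pan-BC, 8.96 and 11.7 in ON-BC, and 8.08 and 19.5 in OFF-BC. The *Pde6g* region at -1 was at 501 and 482 in rods as compared with 142 and 134 in blue cones, 16.8 and 15.96 in pan-BC, 8.96 and 13.2 in ON-BC, and 29.6 and 55.5 in OFF-BC. For both genes rods stood above blue cones and blue cones above bipolar cells in every library, but the rod to blue cone difference was not called (*Pde6a* 1.42, limma adjusted p = 0.509; *Pde6g* 1.83, adjusted p = 0.0638). The *Pde6g* difference was called in edgeR (adjusted p = 0.00126) and in DESeq2 (adjusted p = 0.0192), and in limma without either ON-BC library (adjusted p = 0.0434 and 0.0449) or either OFF-BC library (adjusted p = 0.0289 and 0.0320). Pan-BC lay below rods at *Pde6a* (-4.83, adjusted p = 5.86e-08) and at *Pde6g* (-4.82, adjusted p = 1.35e-08).

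At the *Pde6h* start the region at -50 was at 215 and 223 in blue cones, 114 and 138 in green cones, 15.6 and 21.7 in rods, and 11.2 and 12.5 in pan-BC. No read was counted there in either ON-BC library, whereas OFF-BC were at 44.5 and 38.9. OFF-BC were thus at least 9.40-fold higher than ON-BC when ON-BC are set to 3 counts per library, and the difference was called (limma adjusted p = 5.61e-06). Blue cones exceeded rods by 3.50 on the log2 scale (rods minus blue cones -3.50, adjusted p = 0.000132) and pan-BC by 4.10 (pan-BC minus blue cones -4.10, adjusted p = 8.26e-06). While *Pde6h* RNA in pan-BC averaged 5.19-fold that in rods, its promoter region was at -0.59 in pan-BC minus rods and was not called (adjusted p = 0.997).

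*Pde6c* held 2 promoter regions with different patterns. Both also lie within *Gm32440* (chr19:38125754-38134496, opposite strand), so that their accessibility cannot be credited to *Pde6c* alone. The region at -42 was highest in blue cones, like the RNA, at 170 and 160 in blue cones, 111 and 124 in green cones, 60.7 and 63.7 in rods, 16.002 and 6.84 in pan-BC, 5.97 and 2.93 in ON-BC, and 29.6 and 65.2 in OFF-BC. It was lower in ON-BC than in OFF-BC (-3.11, limma adjusted p = 0.00314; without OFF-BC replicate 2, -2.55, adjusted p = 0.0584) and lower in pan-BC than in blue cones (-3.84, adjusted p = 3.96e-05) and rods (-2.45, adjusted p = 0.00439; without pan-BC replicate 2, -1.89, adjusted p = 0.0827). The region at -627 was instead highest in ON-BC (203 and 204), followed by blue cones (142 and 148), pan-BC (119 and 129), green cones (118 and 114), OFF-BC (72.7 and 51.6) and rods (31.2 and 50.8). It was lower in rods than in blue cones (-1.84, adjusted p = 0.0240) and than in pan-BC (pan-BC minus rods 1.61, adjusted p = 0.0274). Both calls were lost without rod replicate 1 (-1.50, adjusted p = 0.334, and 1.27, adjusted p = 0.296) and in DESeq2 (adjusted p = 0.0680 and 0.0884). The call against blue cones was also lost without blue cone replicate 1 (adjusted p = 0.102) or 2 (adjusted p = 0.121), and that against pan-BC without pan-BC replicate 1 (adjusted p = 0.0537) or 2 (adjusted p = 0.0991). The ON-BC to OFF-BC difference there (1.71) was not called (adjusted p = 0.0684). The *Pde6d* promoter at -63 was open in all populations, from 132 to 297 over the 12 libraries, and no comparison was called (differences from -0.69 to 0.57, adjusted p = 1 for all 4). This region and the *Pde6d* region at -4332 also lie within *Cops7b* (chr1:86582646-86606828, opposite strand). The region at +217 (chr1:86582468-86582668) overlaps the start of *Cops7b*. In every library its peak had the same fold enrichment as that at -63. The accessibility of these regions cannot be credited to *Pde6d* alone.

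**Figure D5:**
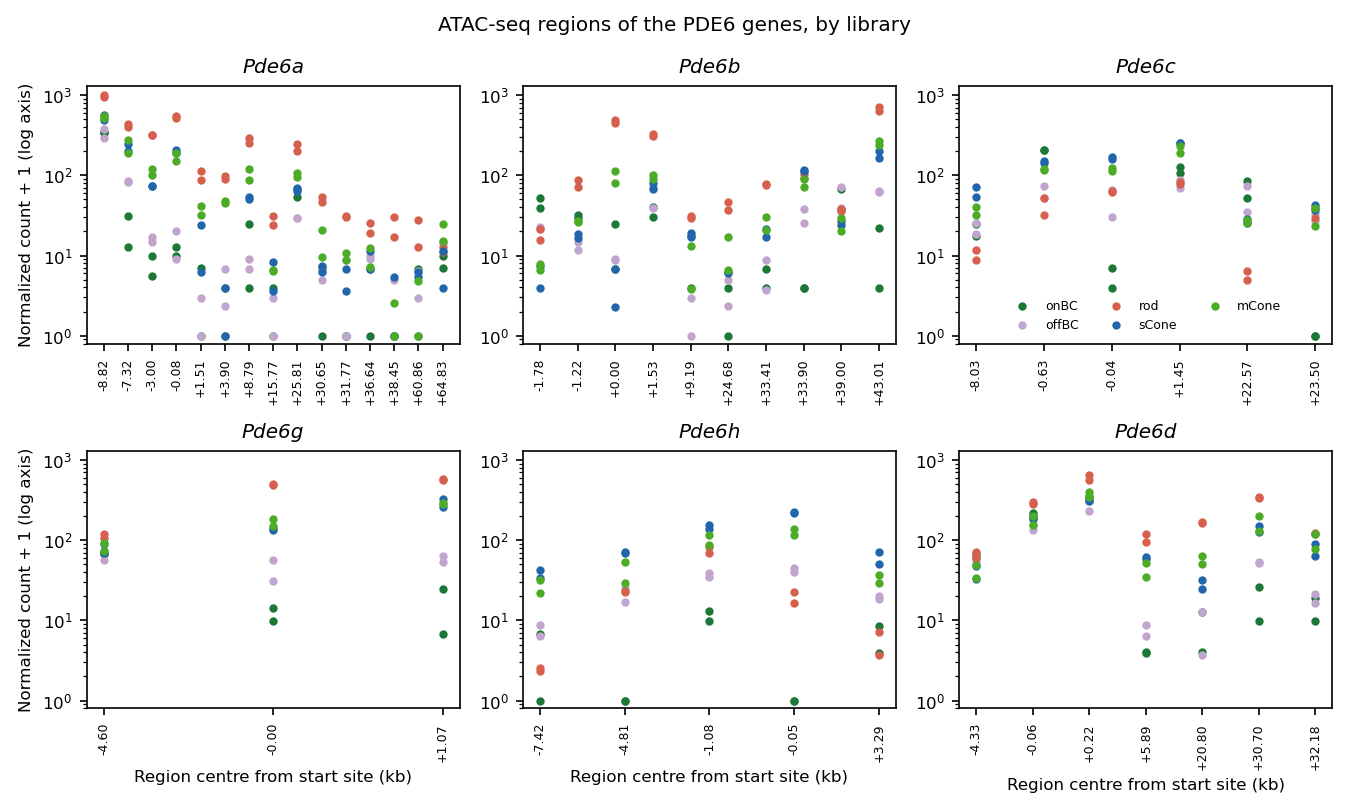
Normalized ATAC-seq counts (plus 1, log axis) at the regions of each PDE6 gene against the distance of the region's centre from the start site in kb, with 1 point per library for rods, green cones (mCone), blue cones (sCone), ON-BC and OFF-BC, and evenly spaced regions. At the start site of *Pde6b* rods are at 491 and 451 and blue cones at 1.30 and 5.78, at that of *Pde6h* both ON-BC libraries are at 0, and at that of *Pde6d* all libraries lie between 132 and 297.

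Outside promoters, the *Pde6b* intron region printed above (centre at +1535) was at 308 and 328 in rods, as compared with 67.3 and 80.2 in blue cones, 59.2 and 51.3 in pan-BC, 38.8 and 29.3 in ON-BC, and 37.7 and 71.1 in OFF-BC. It was higher in rods than in blue cones (2.10, limma adjusted p = 0.0108) and pan-BC (pan-BC minus rods -2.51, adjusted p = 0.000145). The *Pde6g* intron region (+1069) was at 579 and 559 in rods, as compared with 326 and 259 in blue cones, 24.8 and 16.5 in pan-BC, 23.9 and 5.86 in ON-BC, and 52.5 and 62.3 in OFF-BC. Here rods and blue cones were not called apart (0.96, adjusted p = 1), and both stood above all bipolar libraries. *Pde6c* also held an intron region, at +22566, that was highest in pan-BC, at 58.4 and 83.2, and low in rods, at 3.89 and 5.42 (3.66, adjusted p = 2.28e-05).

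Counted over all regions, 29 of 46 PDE6 regions were called between pan-BC and rods, and 27 of these were lower in pan-BC. Over all regions tested 51.6% were called, 11.2% as lower and 40.3% as higher in pan-BC, and the median difference was -2.62 for PDE6 regions against 1.16 for all. Between pan-BC and blue cones 19 of 46 were called (35.9% of all), 18 of them lower in pan-BC (7.13% of all). Rods were the population with the highest mean at 31 of 46 PDE6 regions (67.4%), as compared with 24.1% of all regions, and blue cones at 10 (21.7%, against 10.2%). Rods were highest at 14 of 15 *Pde6a* regions and 7 of 7 *Pde6d* regions, and blue cones at 5 of 5 *Pde6h* regions. At the 7 *Pde6d* regions the highest mean was in rods, but 0 were called between rods and blue cones (median 0.83). Of these regions, those at -4332, -63 and +217 also overlap *Cops7b*. *Pde6d* RNA was called higher in blue cones.

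Between rods and blue cones 12 of 46 regions were called, where 10.02% of all regions were. Of the 28 regions on the rod genes *Pde6a*, *Pde6b* and *Pde6g*, 6 were called and all 6 were higher in rods (1.46% of all regions were called higher in rods). Of the 11 regions on the cone genes *Pde6c* and *Pde6h*, 6 were called and all 6 were higher in blue cones (8.56% of all). The fitted difference was below 0 at 11 of 11 regions on cone genes (59473 of all 108448 tested). It was above 0 at 27 of 28 on rod genes (45750 of all 108448). The number called rested on single libraries. It was 4 without rod replicate 1 or blue cone replicate 1, 5 without rod replicate 2 or blue cone replicate 2, 10 to 17 without any other single library, and 21 in edgeR.

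Between ON-BC and OFF-BC 7 of 46 regions were called, as compared with 7.39% of all, and all 7 were higher in OFF-BC (2.80% of all, with 4.58% higher in ON-BC). They were *Pde6a* -7315 (-2.08, limma adjusted p = 0.0273), *Pde6b* +33898 (-2.97, adjusted p = 0.00356) and +43007 (-2.76, adjusted p = 0.0172), *Pde6c* -42 and +23498, and *Pde6h* -50 and -4812. At +23498 and -4812 both ON-BC libraries were at 0, and OFF-BC were at least 6.61-fold and 4.57-fold higher, respectively, relative to 3 counts per library. The 3 regions of *Pde6a* and *Pde6b* were higher in OFF-BC, although *Pde6a* and *Pde6b* RNA was lower there. The median over the 46 regions was -0.67, or -0.37 with the 5 regions at 0 in ON-BC set to their bound, against 0.15 for all regions. The count was 4 without OFF-BC replicate 2, 5 to 9 without any other single library, and 11 in edgeR.

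The peaks that the study called per library, on which the regions are centred, were also counted. Peaks covered 32 and 36 of the 46 PDE6 regions in rods, 26 and 30 in blue cones, 29 and 26 in green cones, 17 and 16 in pan-BC, 15 and 12 in ON-BC, and 20 and 20 in OFF-BC. Of all 110715 regions, peaks covered 38.0% and 41.4% in the rod libraries, 37.1% and 48.0% in those of blue cones, 47.3% and 36.1% in green cones, 60.3% and 69.1% in pan-BC, 55.4% and 56.8% in ON-BC, and 52.9% and 49.5% in OFF-BC. Thus 69.6% and 78.3% of PDE6 regions had a peak in rods, above the share of all regions, and 37.0% and 34.8% in pan-BC, below it. TAATCC occurred in 17 of the 46 regions (37.0%, against 21.8% of all regions), TGCTGAC in 4 (8.70%, against 4.36%), TAATTA in 1 (2.17%, against 5.22%), TAATTG in 2 (4.35%, against 6.91%) and CANNTG in 27 (58.7%, against 68.9%), on either strand. The TGCTGAC matches lay at the starts of *Pde6b* and *Pde6g* and in regions of *Pde6a* at +3897 and +25812. All are on rod genes, which held 28 of the 46 regions.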

How the data were processed

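RNA-seq and ATAC-seq were measured in sorted mouse retinal cells. Per the labels and the methods of the study, reads were aligned to GRCm38 (STAR 2.7.0d and Bowtie2 2.2.5 are among the tools in the submitters' processing notes, with HTSeq 1.9, MACS2 2.1.1, HOMER 4.8, SAMtools 1.3, Picard 2.19.0 and bedtools 2.24.0). The deposited gene and region tables hold normalized counts, a signal that the authors made by dividing reads by a size factor per library. The deposited peak files, called per library, give a fold enrichment (ratio) and the −log10 of the q-value, of which the fold is used here. All values above 0 were whole multiples of 1 step per library (100% of 230384 gene values and 1212862 region values, within 0.01 read), from which reads were recovered for the filter, for edgeR and for DESeq2. Of the gene rows, 27 are named like dates, and 2 names stand on 2 rows.

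Differences were tested with limma 3.58.1 in R 4.3.3 (treat, trended prior, log2 fold change of 1) on log2(normalized count + 1), in 1 fit over 15 RNA-seq or 12 ATAC-seq libraries, with Benjamini-Hochberg adjustment over 14024 of 24062 genes and 108448 of 110715 regions kept by filterByExpr. limma was chosen over a count model because the values are normalized. edgeR 4.0.16 and DESeq2 1.42.0, other scalings, pseudocounts (0.5 and 4), no filter, a test against 0, left-out libraries and a replicate block were alternatives. Leaving OFF-BC replicate 3 out of levels and gene lists was added after seeing the data. A region was a promoter when its centre lay within 1000 bp before or 100 bp after a RefSeq start. Genes named beyond the 6 members are the 3 called genes with the largest absolute difference in each direction of a list, plus Aipl1, Arl3 and Unc119, and the 3 with the highest correlation. For some lists fewer are shown, and some results on single genes are not reported here. The members and lists were chosen with earlier results of these data known. Where labels do not say that libraries came from separate animals, p-values measure only the spread between these samples, which may be technical. Read depth was 12329548 to 26266746 (RNA-seq) and 4176776 to 12345845 (ATAC-seq), and floors of 3 counts cover counting error only. The statistics were tested on simulated data.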

Additional observations from a re-analysis of the deposited data

Results flagged for a closer look

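Green cones sorted a second time have peak files but no column in the table of regions, so they enter no comparison above. Of the 46 PDE6 regions, 16 and 19 were covered by a peak in these libraries (replicates 3 and 4), against 29 and 26 in green cones sorted once. Peaks covered 40.01% and 27.4% of all regions in the former and 47.3% and 36.1% in the latter. Peaks at promoters were found at Pde6a -82 (fold enrichment 8.85 in replicate 3), at Pde6c -627 and -42 (6.04 and 7.14 in replicate 4), at Pde6d -63 (15.9 in replicate 3 and 16.6 in replicate 4) and at Pde6h -50 (8.39 in replicate 3 and 7.53 in replicate 4). Neither library had a peak at the Pde6b or Pde6g promoter, where both libraries of green cones sorted once did (9.38 to 10.9 and 6.73 to 7.85). A missing peak depends on depth and on the caller's threshold, and the difference between the sorts was not tested. Groups of 2 or 3 libraries were not screened for an outlying library.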

How the results depend on the processing

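No call changed direction. Over the alternatives, 578 PDE6 gene differences kept their side of the threshold, 11 newly passed it and 7 no longer did, and the numbers at promoter regions were 502, 19 and 11. Among those that kept their side, 1 gene difference and 3 promoter differences changed sign without a call in either fit. The gene calls that changed are given above, beside which Pde6h between pan-BC and rods passed with only these populations (adjusted p = 8.46e-05), library totals (0.0227) and a pseudocount of 4 (0.0497). The number of PDE6 genes called between pan-BC and rods rose from 3 to 6 against 0 and to 5 with only the 2 populations. Against 0, all genes called numbered 11156 (pan-BC and rods), 10704 (pan-BC and blue cones), 8068 (rods and blue cones) and 3783 (ON-BC and OFF-BC), against 6112, 5092, 2231 and 919. Regions called against 0 numbered 66171 between pan-BC and blue cones. Between rods and blue cones 12 PDE6 regions became 21 in edgeR and 34 against 0 (4 to 17 with 1 library left out), and 10871 regions in all became 19112 and 37557 (7051 to 11374). Between ON-BC and OFF-BC 7 PDE6 regions became 11 and 17 (4 to 9), and 8010 in all became 12927 in edgeR, 4762 in DESeq2 and 26416 against 0 (4014 to 7810).

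Scaling by library totals moved the median of all genes by 0.34 (pan-BC minus rods) and 0.28 (pan-BC minus blue cones), and the split of calls between pan-BC and rods from 3901 higher and 2211 lower to 4497 and 1578. TMM scaling moved the split of regions between ON-BC and OFF-BC from 4972 and 3038 to 3712 and 3482, and region medians by -0.06 to -0.27. Same-numbered ON-BC and OFF-BC libraries share an age (43, 48 and 42 days for RNA-seq, 42 and 46 for ATAC-seq), but the labels do not say that they came from the same mice or sort, and their deviations did not move together throughout (correlations -0.076, 0.222 and -0.065 for RNA-seq, 0.00017 for ATAC-seq). A replicate block left the PDE6 gene calls at 3, 6, 5 and 4, the PDE6 region calls at 29, 18, 12 and 8, and all genes between ON-BC and OFF-BC at 1014 against 919. DESeq2 gave no adjusted p for Pde6c. With 2 or 3 libraries per population, calls near the threshold rest on single libraries.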
